A study of Mus musculus with 47 samples.

Results

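Potassium channel genes were examined as a family of tissue antigens in medullary thymic epithelial cells (mTECs), the cells that display proteins of peripheral organs to developing T cells. The family was taken by gene symbol: every protein-coding gene of the GRCm38 annotation whose symbol is Kcn, 1 or more letters and a closing number, and which both count tables list. This gave 92 genes, of 53402 listed genes in the adult table and 55471 in the neonatal table. A further 2 protein-coding genes whose symbols open with Kcn lack that form and were left out. Of the 92 genes, 40 encode voltage-gated alpha subunits (Kcna to Kcnd, Kcnf to Kcnh, Kcnq, Kcns and Kcnv), 15 inward rectifiers (Kcnj), 14 tandem-pore K2P leak channels (Kcnk), 8 channels opened by calcium or sodium (Kcnma, Kcnn, Kcnt and Kcnu) and 15 auxiliary subunits (Kcnab, Kcne, Kcnip and Kcnmb). By textbook tissue, 41 were listed as neural, 14 as muscle or heart and 13 as epithelial, and 24 were not listed. Every one of the 92 genes had a count in at least 1 library of each table, and 66 adult and 73 neonatal members passed edgeR's filter on low counts and were tested.

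RNA was sequenced from mTECs sorted from the thymus of C57BL/6 mice as CD45-, EpCAM+ and Ly51- cells with high (mTEChi) or low (mTEClo) surface MHC class II. The adult libraries, from mice of 4 to 6 weeks, were mTEChi of WT (n = 7) and AireKO (n = 4) and mTEClo of WT (n = 8) and AireKO (n = 4); AireKO mice were all male and 5 or 6 weeks old, while WT mice were 4 or 5 weeks old and of both sexes. The neonatal mTEChi libraries, from mice of 1 to 6 days, came from 5 Ctrl samples and from 3 samples each of EEDcKO, AireKO and AireEEDdKO, and the mTEClo libraries from 3 Ctrl, 4 EEDcKO and 3 AireEEDdKO samples. EEDcKO mice carry a floxed Eed allele deleted by Foxn1-Cre, which acts in thymic epithelium, and AireEEDdKO mice combine this with the loss of Aire. Neonatal AireKO and AireEEDdKO mice were 4 or 6 days old, whereas neonatal Ctrl and EEDcKO mTEChi came from mice of 1, 2 to 3 or 6 days. The mTEClo of Ctrl came from mice of 1 or 2 to 3 days and those of EEDcKO from mice of 1, 2 to 3, 4 and 6 days, so the age ranges of compared neonatal groups matched only for EEDcKO against Ctrl in mTEChi and for AireEEDdKO against AireKO. Some neonatal libraries pooled males and females, and the alleles that Ctrl mice carried are not given in the sources used here.

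Potassium channels let potassium leave or enter the cell and so set the resting potential and shape electrical signals. Voltage-gated alpha subunits assemble as tetramers that open on depolarization, inward rectifiers and tandem-pore channels hold the resting potential, and auxiliary subunits change the gating of the pore. Many members are known from a narrow range of tissues such as axons, cardiac muscle, glia, gastric parietal cells or pancreatic islets, and antibodies to neuronal potassium channel complexes occur in autoimmune neurological disease. Aire promotes the transcription of many tissue-restricted genes in mTECs. EED is needed by the Polycomb complex PRC2 to place a silencing mark on histone H3, often at promoters rich in CpG.

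Adult libraries held 1602125 to 3938588 counts and neonatal ones 1578579 to 4817418. The upper limit that a count of 0 allows, 3 counts, was 0.7285 to 1.908 CPM (counts scaled to a common library size) in adults and 0.6158 to 2.066 CPM in neonates. Aire fell in adult mTEChi AireKO from 752.9–921.1 to 17.12–39.28 CPM and in neonatal mTEChi AireKO from 463.8–808 to 44.76–115.1 CPM. Eed fell in neonatal mTEChi EEDcKO from 20.37–38.81 to 10.72–19.82 CPM (log2 change -1.001 ± 0.219 SE, edgeR adjusted p = 0.00139). In the adult table, 6 libraries held 0 mitochondrial counts, while the others held 6178 to 10339. They comprised every mTEChi library of AireKO and replicates 3 and 4 of mTEClo AireKO, so genotype and this kind of library cannot be told apart in adult mTEChi. All 10 mTEC markers were detected in every group. Some lists of markers of other cell types that moved with a result are given beside it.

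Kcnj15 was at or near the top of the family in every control group, and neural members such as Kcnip3 and Kcnq3 were also among the most abundant. Levels between genes are given as CPM per kb of exon. Kcnj15, an inward rectifier of kidney and other epithelia, had the highest mean in all 4 control groups, at 63.6 CPM per kb in adult mTEChi WT, 54.6 in adult mTEClo WT, 45.1 in neonatal mTEChi Ctrl and 40.7 in neonatal mTEClo Ctrl. In adult mTEChi WT it was followed by Kcnh6, a voltage-gated channel of the ether-a-go-go family, at 59.7 CPM per kb, by the K2P channel Kcnk6 at 47.6 and by the Kv channel partner and calcium sensor Kcnip3 at 22.0. Before scaling to length, Kcnj15 and Kcnh6 were at 401.5 ± 27.1 and 211.9 ± 32.5 CPM in that group (SD, n = 7), and once scaled their SDs overlapped. In adult mTEClo WT the second place went to Kcnq3, a voltage-gated channel of neurons, at 52.6 CPM per kb, and in neonatal mTEChi Ctrl to Kcnk6 at 43.9. These neighbours were not apart: Kcnh6 exceeded Kcnj15 in 4 of 7 adult mTEChi WT libraries, Kcnq3 in 4 of 8 adult mTEClo WT libraries and Kcnk6 in 3 of 5 neonatal mTEChi Ctrl libraries. Per kb of the longest transcript, Kcnq3 (65.4 CPM per kb) came before Kcnj15 (60.4) in adult mTEClo WT. In all 3 neonatal mTEClo Ctrl libraries Kcnj15 lay above Kcnk6, the next in order at 21.4 CPM per kb of exon. At the other end, Kcnu1, a channel of sperm, stayed between 0 and 2.702 CPM in all 47 libraries and was not tested. The 17 members that passed the filter in neither table included Kcna4, Kcnc2, Kcnj1 and Kcnv2.

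**Figure D1:**
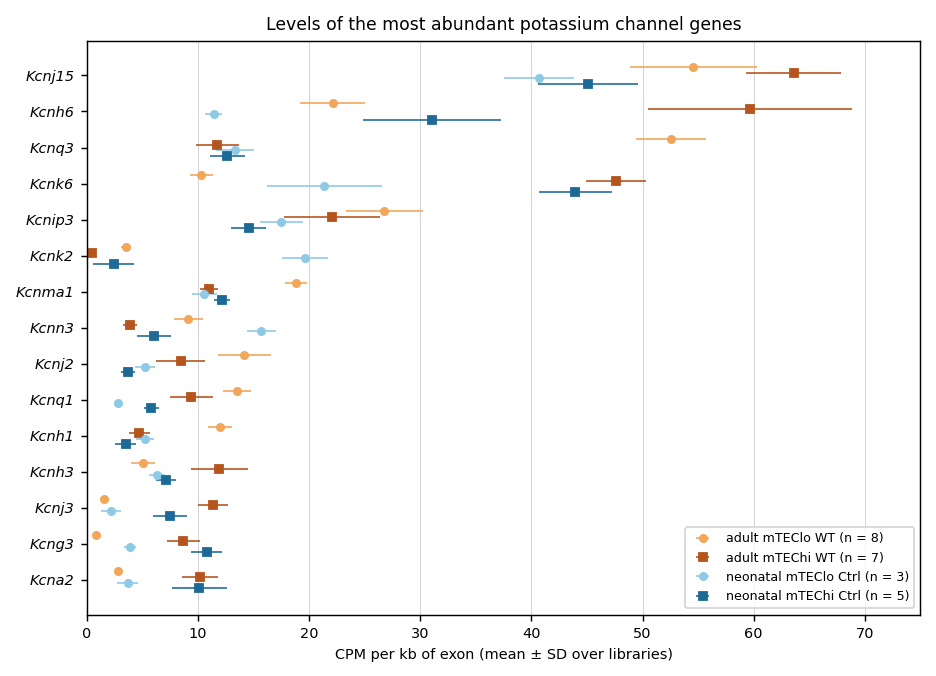
CPM per kb of exon (mean ± SD over libraries, linear axis) of the 15 potassium channel genes that were among the 8 highest in any of the 4 control groups; circles are mTEClo, squares mTEChi, orange adult WT and blue neonatal Ctrl. Kcnj15 is the highest in each group, Kcnq3 reaches 52.6 only in adult mTEClo, and Kcnk2 reaches 19.6 only in neonatal mTEClo.

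More channel genes were higher in mTEChi than were lower. In adult WT, 30 of 66 tested members were higher in mTEChi than in mTEClo and 11 were lower, that is 45.5% and 16.7%, beside 23.7% and 12.4% of all genes tested. In neonatal Ctrl, 30 of 73 were higher and 2 lower, 41.1% and 2.74%, beside 13.8% and 6.92% of all genes. The median log2 difference of the members was 0.64 in adults and 1.02 in neonates. Among members tested in both tables, 19 were called higher in both, which is 67.9% of the 28 adult and 65.5% of the 29 neonatal calls. For all genes the corresponding shares were 48.6% and 80.9%. Neural members took 16 of the 30 adult and 15 of the 30 neonatal calls, from 31 and 34 tested. These are 51.6% and 44.1% of the neural list, beside 45.5% and 41.1% of the family. Of the muscle list, 3 of 12 were higher and 3 lower in adults, and 5 of 12 were higher and 0 lower in neonates.

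Kcnq3 was measured at 693, 779 and 833 CPM (lowest, median and highest) in adult mTEClo WT and at 140, 172 and 214 CPM in mTEChi WT. The groups did not overlap, and the log2 difference was -2.16 ± 0.10 (SE, edgeR adjusted p = 1.07e-16). In neonates Kcnq3 lay at 209, 196, 171, 199 and 153 CPM in mTEChi Ctrl and 213, 208 and 168 CPM in mTEClo, and the groups overlapped. Kcnj3, an inward rectifier of atrium and neurons that G proteins open, ran the other way in adults, from 6.3, 7.31 and 11.3 CPM in mTEClo to 53.1, 56.2 and 70.7 CPM in mTEChi (log2 difference 2.81 ± 0.15, adjusted p = 5.22e-16).

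Kcnk2, a mechanically gated K2P channel of neurons, and Kcnn3, a small-conductance calcium-activated channel, were the only 2 members lower in neonatal mTEChi and were lower in adult mTEChi as well. Kcnk2 was at 98, 86.3 and 107 CPM in neonatal mTEClo Ctrl and at 6.19, 4.04, 9.9, 26.9 and 12.4 CPM in mTEChi Ctrl (log2 difference -2.92 ± 0.40, adjusted p = 1.08e-05). In adults it was at 13.4, 17.5 and 20.9 CPM in mTEClo WT and 0.62, 1.43 and 3.87 CPM in mTEChi WT (-2.89 ± 0.25, adjusted p = 3.3e-11). About 12.2% of Kcnk2 exon length overlaps an antisense gene, and since strand was not used in counting, its level is uncertain. Without neonatal mTEClo Ctrl replicate 3, 21 members instead of 32 were called between the neonatal fractions. cTEC markers were 2100 to 3160 CPM in sum in neonatal mTEClo Ctrl and 241 to 902 in mTEChi Ctrl, and all 5 were lower; Schwann cell and glial markers were higher in adult mTEChi for 4 of 5. In adult WT, neuronal markers were higher in mTEChi for 3 of 5 and lower for 2 (277–322 CPM in sum in mTEClo against 561–675). Tuft cell markers were lower in adult mTEChi WT for 5 of 5 (1600–2080 CPM in sum in mTEClo against 212–326). Myeloid markers were higher there for 5 of 5 (38–68 against 240–306) and thymocyte markers for 4 of 5. Their part in these differences was not tested, and in such bulk samples fewer cells of a type and less RNA per cell cannot be told apart.

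**Figure D2:**
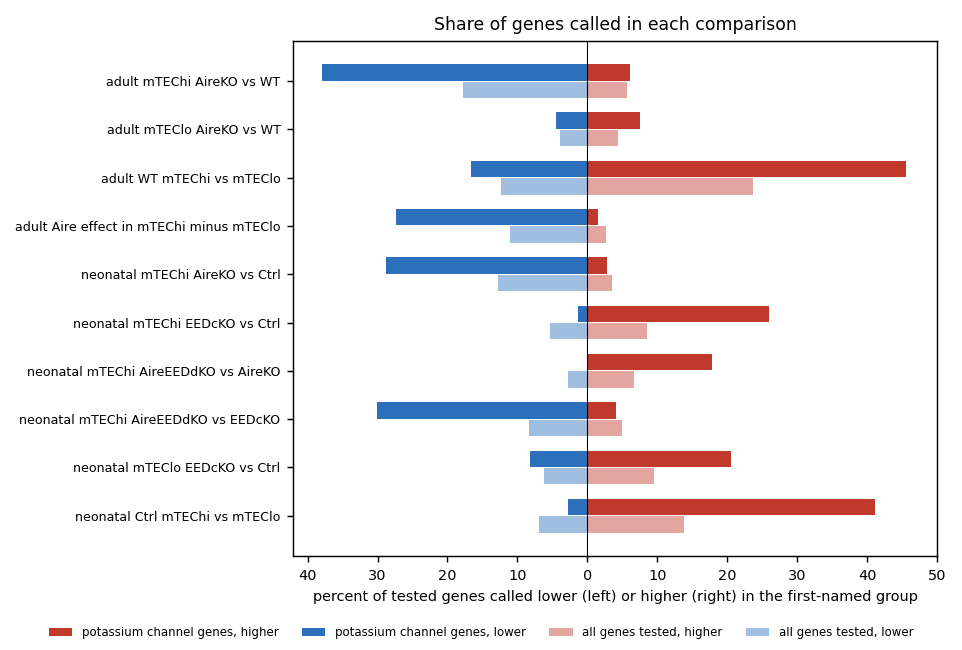
Share of tested potassium channel genes (dark bars) and of all genes tested (pale bars) called higher (red, right) or lower (blue, left) in the first-named group of each of 10 comparisons, in percent; a call is an adjusted p under 0.05 with at least a 2-fold change. Lower calls reach 37.9% of members in adult mTEChi AireKO, and no member was lower in AireEEDdKO against AireKO.

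Promoter sequences are shown for 4 members on which the genotype comparisons below turn: Kcne2 and Kcnk16, which were among the largest falls without Aire, and Kcnj6 and Kcnk1, which rose in each of 3 comparisons that remove EED. Each window runs from 250 bases before to 50 after the RefSeq start on GRCm38.p6, written 5′ to 3′ along the gene's strand with every CpG in capitals.
Kcne2, chr16:92292139-92292438, plus strand: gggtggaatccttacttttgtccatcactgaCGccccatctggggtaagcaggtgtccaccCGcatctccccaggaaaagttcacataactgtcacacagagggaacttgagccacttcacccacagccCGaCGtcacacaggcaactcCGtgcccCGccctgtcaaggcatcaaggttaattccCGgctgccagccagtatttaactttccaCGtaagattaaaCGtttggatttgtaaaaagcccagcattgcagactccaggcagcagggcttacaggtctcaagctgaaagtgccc
Kcnk16, chr14:20269220-20269519, minus strand: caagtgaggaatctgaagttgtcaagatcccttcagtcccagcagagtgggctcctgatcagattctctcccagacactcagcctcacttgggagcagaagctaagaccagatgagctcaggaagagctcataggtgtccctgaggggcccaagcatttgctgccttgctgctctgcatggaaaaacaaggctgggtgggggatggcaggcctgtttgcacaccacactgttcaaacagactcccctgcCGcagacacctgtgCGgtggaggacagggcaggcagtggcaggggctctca
Kcnj6, chr16:94997647-94997946, minus strand: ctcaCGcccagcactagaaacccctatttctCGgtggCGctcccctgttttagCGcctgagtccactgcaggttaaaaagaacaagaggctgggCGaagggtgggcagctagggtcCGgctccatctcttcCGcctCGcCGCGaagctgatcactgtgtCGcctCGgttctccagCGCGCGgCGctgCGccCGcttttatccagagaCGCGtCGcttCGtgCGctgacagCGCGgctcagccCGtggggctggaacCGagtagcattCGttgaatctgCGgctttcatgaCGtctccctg
Kcnk1, chr8:125994852-125995151, plus strand: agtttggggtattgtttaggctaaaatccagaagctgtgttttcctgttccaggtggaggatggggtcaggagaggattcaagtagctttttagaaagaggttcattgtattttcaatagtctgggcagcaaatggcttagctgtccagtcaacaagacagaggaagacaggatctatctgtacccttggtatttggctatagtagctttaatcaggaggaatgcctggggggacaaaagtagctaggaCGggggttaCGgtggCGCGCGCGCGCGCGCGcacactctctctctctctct
The Kcnk16 window holds 2 CpG, fewer than the median of 7 over 27025 promoters of the same length, and 14.6% of all promoters hold fewer. Kcne2 holds 9, with 53.8% of promoters below it, and Kcnk1 holds 10, with 56.1% below. The Kcnj6 window holds 30, with 88.5% of promoters below it. Most CpG of the Kcnk1 window lie in 1 run of repeated CG. In the annotation used to pick the members, Kcnk1 starts at 125995170 and Kcnk16 at 20269199. The windows of these 2 genes therefore lie wholly before those starts. Entries were found for 67 of the 92 members (72.8%), too few for a comparison over the family, which is therefore void.

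Without Aire, channel genes fell far more often than they rose. In adult mTEChi, 25 of 66 members were lower in AireKO than in WT and 4 were higher, that is 37.9% and 6.06%, beside 17.8% and 5.63% of all genes tested. In neonatal mTEChi, 21 of 73 were lower in AireKO than in Ctrl and 2 higher, 28.8% and 2.74%, beside 12.8% and 3.56% of all genes. The median log2 change of the members was -0.60 in adults and -0.49 in neonates, beside -0.015 and 0.035 over all genes. Between members tested in both tables, 16 were lower at both ages, which is 66.7% of the 24 adult and 80% of the 20 neonatal calls, beside 58.6% and 80.9% for all genes. Members with at least 1 count numbered 83 to 91 per library in adult mTEChi WT and 63 to 72 in AireKO, and 82 to 91 in neonatal Ctrl and 65 to 72 in AireKO. Detected genes of all kinds moved with them, from 28028–32252 to 24991–26624 in adults. The summed level of the members overlapped between the adult groups, at 2144 to 2493 CPM for WT and 2137 to 2624 for AireKO.

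The epithelial list had the largest share of falls in neonates: 7 of 12 tested members (58.3%) were lower and none higher, at a median log2 change of -1.66. In adults 5 of 10 (50%) were lower. Of all genes, 12.8% were lower in neonates and 17.8% in adults. Each member was put in 1 list only, and some of these 7, such as Kcnj10 of glia and Kcnq1 of heart, are not confined to epithelia. Of the muscle list, 6 of 12 were lower and 1 higher in adults and 4 of 12 lower in neonates. Of the neural list, 10 of 31 were lower and 3 higher in adults, and 8 of 34 lower and 2 higher in neonates. By class, K2P channels were lower for 4 of 9 in adults and 5 of 11 in neonates, auxiliary subunits for 6 of 11 and 3 of 13, voltage-gated alpha subunits for 9 of 28 and 8 of 32, inward rectifiers for 4 of 12 and 3 of 12, and calcium- or sodium-activated channels for 2 of 6 and 2 of 5.

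Kcnk9, a neuronal K2P leak channel also present in the adrenal cortex, fell to 1 count in adult mTEChi AireKO. It was at 19.2, 32.9 and 68.2 CPM (lowest, median and highest) in adult mTEChi WT and at 0, 0.409, 0 and 0 CPM in AireKO. With 1 count left in AireKO, the ratio of WT to AireKO was 459 (95% counting interval 82.2 to 18200). Neonatal Ctrl libraries held 30.9, 17.9, 20.6, 31.4 and 27.6 CPM and AireKO 0, 0.689 and 0.565 CPM, a ratio of 56.3 (19.1 to 274). The genotypes did not overlap at either age, and both falls passed the test (adjusted p = 7.93e-07 and 4.05e-05).

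Kcnk16, a K2P channel of pancreatic islet cells, was at 12.3, 14.2 and 20.0 CPM in adult mTEChi WT and at 0 in all 4 AireKO libraries, at least 51.1-fold lower with 3 counts over the group as the floor (adjusted p = 1.4e-11). The neonatal values were 10.1, 8.66, 10.5, 10.8 and 9.6 CPM in Ctrl and 0.685, 0 and 0 CPM in AireKO, a ratio of 64.9 (11.5 to 2580, adjusted p = 1.38e-05). Kcne2, an auxiliary subunit that works with Kcnq1 in gastric parietal cells, was at 7.31, 4.62, 9.63, 5.54 and 7.26 CPM in neonatal Ctrl and at 0 in all 3 AireKO libraries, at least 14.8-fold lower (adjusted p = 0.00112). Its adult levels were 5.1, 8.57 and 12.1 CPM in WT and 0, 0.409, 0 and 0 CPM in AireKO, a ratio of 85.2 (15.1 to 3380). Kcnq1 itself, which carries potassium currents in heart, stomach and inner ear, was at 27.6, 23.7, 23.4, 19.5 and 24.6 CPM in neonatal Ctrl and at 6.85, 13.8 and 9.32 CPM in AireKO (log2 change -1.25 ± 0.30, adjusted p = 0.0037). So the neonatal AireKO libraries lay below all Ctrl libraries for the pore and for its partner. Endocrine markers were lower for 3 of 6 in adult AireKO, with sums of 182–268 CPM in WT and 217–298 in AireKO, and lower for 2 of 6 and higher for 1 in neonatal AireKO (153–232 against 230–295). At both ages 1 of the 6 was at 0 in AireKO, and their part was not tested.

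Among the muscle members, Kcnmb1, the smooth muscle partner of the BK channel, and Kcna5, a voltage-gated channel of the atrium, fell to 1 and 0 counts in adult AireKO. Kcnmb1 was at 6.6, 11.8 and 13.9 CPM in adult mTEChi WT and 0, 0.409, 0 and 0 CPM in AireKO, a ratio of 112 (19.8 to 4430, adjusted p = 1.65e-10). In neonates it was at 8.44, 14.4, 15.1, 17.2 and 18.7 CPM in Ctrl and 0, 0 and 1.7 CPM in AireKO (log2 change -4.04 ± 0.71, adjusted p = 0.000252). Its pore, Kcnma1, stayed high without Aire, at 170, 186 and 204 CPM in adult WT and 280, 302, 257 and 242 CPM in AireKO. Kcna5 was at 3.87, 6.2 and 8.93 CPM in adult WT and at 0 in all 4 AireKO libraries, at least 21.5-fold lower (adjusted p = 9.98e-08). Muscle markers were lower for 4 of 7 in adult AireKO (2270–3150 against 1320–1920 CPM in sum) and 3 of 7 in neonatal AireKO, where their sum was 2460–4840 in Ctrl and 4960–7580 CPM in AireKO. In AireKO, 1 of the 7 markers was at 0 in adults and 1 in neonates. Their part in these falls was not tested.

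Among epithelial and glial channels, Kcnk5, a K2P channel of the kidney, was at 10.5, 22.5 and 33.6 CPM in adult WT and 0, 0.409, 3.08 and 2.51 CPM in AireKO (log2 change -3.82 ± 0.43, adjusted p = 2.76e-08). It also fell in neonates (-2.84 ± 0.65, adjusted p = 0.00259). Kcnj10, the main inward rectifier of glia and of kidney tubules, was at 6.75, 11, 11, 12.4 and 5.62 CPM in neonatal Ctrl and 2.06, 2.75 and 1.98 CPM in AireKO (-2.07 ± 0.43, adjusted p = 0.00129). Its partner Kcnj16 was at 6.19, 11.6, 9.9, 7.92 and 9.84 CPM against 1.37, 1.38 and 0.848 CPM (-3.00 ± 0.65, adjusted p = 0.00161). Each AireKO library lay below each Ctrl library for both subunits. Schwann cell and glial markers such as Sox10, S100b and Gfap moved with them, being lower for 4 of 5 in neonates (35.4–56.7 against 6.2–11.6 CPM in sum) and 5 of 5 in adults (36.6–56.5 against 5.32–8.34). None of the 5 was at 0 in AireKO. Ionocyte markers were lower for 3 of 4 in adults (77.8–142 against 23.3–47.2 CPM in sum) and 2 of 4 in neonates (93.9–122 against 51–68.4, with 1 of the 4 at 0), and keratinocyte markers for 3 of 4 (165–244 against 64.2–117) and 1 of 4 (164–232 against 86.1–130). Tuft cell markers were lower for 2 of 5 in adults (212–326 against 106–202) and 4 of 5 in neonates (151–203 against 65.8–91.8), and thymocyte markers for 4 of 5 in adults. Mesenchymal markers were lower for 3 of 5 and higher for 1 at both ages. Their sums overlapped in adults (185–352 against 187–201) and neonates (233–307 against 218–304, with 1 of the 5 at 0 in AireKO). Ciliated cell markers were lower for 2 of 3 in adults (133–244 against 58.9–86) and 1 of 3 in neonates. Myeloid markers were lower for 2 of 5 at both ages, with 1 higher in adults. The part of these lists in the falls was not tested.

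Kcnt1, a sodium-activated channel of neurons, fell at both ages but stayed detected in every AireKO library. Adult mTEChi held 42.6, 53.2 and 76.4 CPM in WT and 17.1, 13.9, 15.4 and 18.0 CPM in AireKO (log2 change -1.76 ± 0.24, adjusted p = 4.94e-07). Neonatal mTEChi held 50.6, 49.1, 52.3, 38.0 and 37.9 CPM in Ctrl and 8.22, 8.26 and 15.5 CPM in AireKO (-1.98 ± 0.26, adjusted p = 1.49e-05). Kcnc4, a fast voltage-gated channel of nerve and muscle, was at 5.62, 2.89, 4.4, 4.75 and 7.26 CPM in neonatal Ctrl and 0, 0.689 and 0 CPM in AireKO, a ratio of 34 (5.92 to 1360, adjusted p = 0.0012). Kcnd2, which carries the transient outward current of dendrites, was at 5.62, 1.73, 4.68, 3.43 and 3.28 CPM against 0, 0 and 0.283 CPM, a ratio of 24.2 (4.17 to 972, adjusted p = 0.00114). The groups of all 3 genes were apart.

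**Figure D3:**
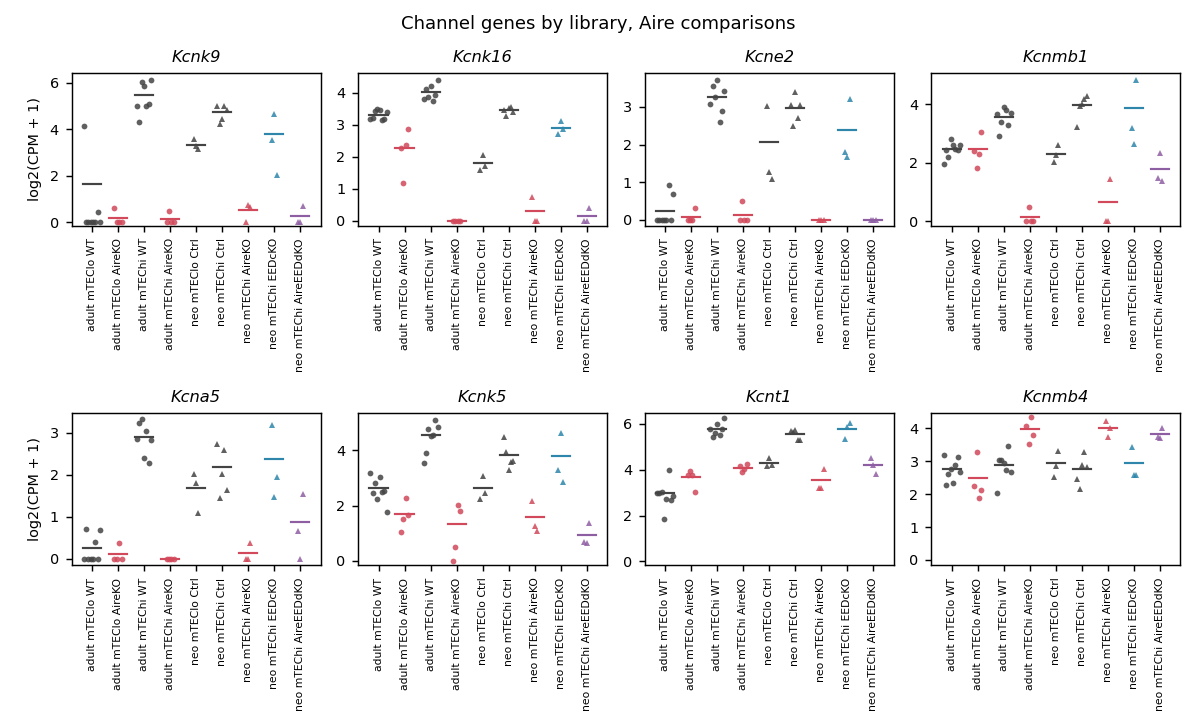
log2(CPM + 1) of 8 potassium channel genes in each library (circles adult, triangles neonatal) with horizontal lines at the group mean of CPM; grey is WT or Ctrl, red AireKO, blue EEDcKO and purple AireEEDdKO. Kcnk16 is at 0 in all 4 adult mTEChi AireKO libraries, and Kcnmb4 is the gene shown that is higher in the AireKO groups of mTEChi.

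A few members rose without Aire. Kcnmb4, the neuronal partner of the BK channel, was at 4.5, 3.46, 6.33, 8.71 and 6.09 CPM in neonatal mTEChi Ctrl and 17.8, 12.4 and 15.3 CPM in AireKO (log2 change 1.31 ± 0.27, adjusted p = 0.000995). In adults it was at 3.1, 6.64 and 10.0 CPM in WT and 15.8, 10.6, 19.5 and 12.9 CPM in AireKO (1.16 ± 0.25, adjusted p = 0.000277). The AireKO libraries lay above all controls at both ages, but the adult change was 0.95 on the log2 scale, below the 2-fold minimum, without mTEChi AireKO replicate 3. Antisense genes cover 31.5% of Kcnmb4 exon length, and without strand their reads cannot be told apart. Kcnj3 was at 29.2, 40.4, 45.7, 31.9 and 47.1 CPM in neonatal Ctrl and 103, 107 and 89.6 CPM in AireKO (1.35 ± 0.38, adjusted p = 0.0109). This call was lost without mTEChi AireKO replicate 2 (0.0545), with age class as a term (1.36, adjusted p = 0.0727) and with the replicate block (1.37, adjusted p = 0.065). An antisense gene covers 31.1% of its exon length. In adult AireKO the neural channel Kcnh4 (1.39 ± 0.25) and the muscle channel Kcna7 (1.62 ± 0.38) also rose.

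Where the kind of library was added to the adult fit, an alternative chosen after the data were seen, 18 of the 29 adult mTEChi calls remained and 28 members were called. Since all mTEChi AireKO libraries were of 1 kind, the term rests on the 2 mTEClo AireKO libraries with mitochondrial counts and the 2 without. The former were from mice of 5 weeks and the latter from mice of 6 weeks, with more counts per library. Kind of library, age and depth therefore cannot be told apart in this term. Among the calls lost were Kcna7 (log2 change 1.33, adjusted p = 0.158) and Kcnk9 (-5.36, 0.999), Kcne2 (-7.88, 0.0686) and Kcng1 (-5.71, 0.0904), whose fitted sizes depend on the prior count. Kcnj12 (0.81, 0.524) and Kcnj4 (3.55, 0.137) turned to a positive change that did not pass the test.

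In adult mTEClo the loss of Aire called few members. Of 66, 5 were higher in AireKO and 3 lower, 7.58% and 4.55%, beside 4.42% and 3.88% of all genes, shares close to the background. Kcna2, a channel of axons, was at 28.0, 33.1 and 39.6 CPM in WT and 87.1, 95.2, 79.2 and 69.9 CPM in AireKO (log2 change 1.30 ± 0.13, adjusted p = 4.71e-08), and Kcnj3 was at 6.3, 7.31 and 11.3 CPM against 23.8, 19.4, 15.5 and 23.8 CPM (1.28 ± 0.19, adjusted p = 1.03e-05). Both groups were apart for both genes. Kcna1, the partner of Kcna2 at axons, was at 2.17 and 2.5 CPM in the AireKO libraries with mitochondrial counts and at 8.64 and 8.98 CPM in those without. These 2 kinds also differed in age (5 against 6 weeks) and in depth, which cannot be told apart here. The rise of Kcna1 (1.50 ± 0.43, adjusted p = 0.0111) was lost without AireKO replicate 3 (0.0681) or replicate 4 (0.0883) and with the kind of library as a term (0.956). Without AireKO replicate 3, 5 members instead of 8 were called.

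For a part of the members, the effect of Aire loss differed between the adult fractions. Aire RNA was at 19.6–127.8 CPM in mTEClo WT and at 752.9–921.1 CPM in mTEChi WT. All mTEChi AireKO libraries lacked mitochondrial counts but only some of the mTEClo AireKO libraries did, so this kind of library is not balanced in the contrast. In a test of the difference, the change in mTEChi was lower than that in mTEClo for 18 of 66 members and higher for 1, Kcnmb4, that is 27.3% and 1.52%, beside 11.0% and 2.7% of all genes. Kcnk1, a weakly conducting K2P channel of brain and kidney, was at 2.26, 5.13 and 7.5 CPM in mTEChi WT and 0 in all 4 mTEChi AireKO libraries, at least 15.8-fold lower. In mTEClo it was at 4.02, 8.65 and 10.4 CPM in WT and 9.74, 7.51, 11.9 and 18.9 CPM in AireKO. The difference between the fractions passed the test (adjusted p = 3.37e-06). Kcnmb1 likewise fell in mTEChi, and was at 2.87, 4.51 and 6.03 CPM in mTEClo WT and 4.33, 2.5, 3.87 and 7.29 CPM in mTEClo AireKO (adjusted p of the difference = 6.2e-08). Kcnt1 was at 2.62, 6.59 and 14.6 CPM in mTEClo WT and 12.4, 14.4, 12.8 and 7.29 CPM in AireKO, against its fall in mTEChi (adjusted p = 1.36e-05).

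Without EED, channel genes rose more often than they fell, and most that rose in mTEChi were voltage-gated alpha subunits. In neonatal mTEChi, 19 of 73 members were higher in EEDcKO than in Ctrl and 1 lower, 26.0% and 1.37%, beside 8.48% and 5.4% of all genes. Without Aire, 13 of 73 were higher in AireEEDdKO than in AireKO and 0 lower, 17.8% beside 6.69% of all genes higher and 2.78% lower. No call was lower by DESeq2 either, and 1 member was lower at an unadjusted p under 0.05. In mTEClo, 15 of 73 were higher in EEDcKO and 6 lower, 20.5% and 8.22%, beside 9.51% and 6.22% of all genes. Voltage-gated alpha subunits took 14 of the 19 rises in EEDcKO mTEChi and 11 of the 13 in AireEEDdKO against AireKO, from 32 tested. Their median log2 change was 0.99 and 1.37 (1.27 with genes without counts at their bound), beside -0.001 and 0.034 over all genes. No auxiliary subunit, of 13 tested, was called by edgeR in either comparison, beside 13.9% and 9.47% of all genes called in either direction. At an unadjusted p under 0.05 there were 3 and 1. In mTEClo EEDcKO, 2 of the 13 were higher and 1 lower, and so few genes do not set the class apart. Neural members made up 8 of the rises in each of the 2 mTEChi comparisons, from 34 tested. The comparisons EEDcKO against Ctrl and AireEEDdKO against AireKO have no library in common, and 9 members rose in both, which is 47.4% of the first and 69.2% of the second, beside 34.8% and 44.1% for all genes.

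Kcna1 was at 9.0, 13.9, 19.5, 22.2 and 15.9 CPM in mTEChi Ctrl and at 42.7, 74.1 and 39.0 CPM in EEDcKO (log2 change 1.66 ± 0.24, adjusted p = 2.36e-05). In AireKO it was at 11, 14.5 and 10.2 CPM and in AireEEDdKO at 59.5, 64.7 and 55.8 CPM (2.37 ± 0.31, adjusted p = 1.34e-05). All libraries without EED lay above all libraries with it. In mTEClo the values were 32.4, 31.9 and 34.3 CPM in Ctrl and 61.6, 60.0, 33.3 and 36.8 CPM in EEDcKO, which was not called (0.53 ± 0.25, adjusted p = 0.109).

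Kcnc1, which allows fast-spiking neurons to repolarize quickly, rose in both mTEChi comparisons. It was at 15.8, 16.8, 11.6, 11.1 and 16.6 CPM in Ctrl and 51.4, 42.2 and 48.4 CPM in EEDcKO (1.73 ± 0.36, adjusted p = 0.000836), and rose from 11.6, 17.9 and 11.3 CPM to 44.7, 105 and 27.6 CPM with the loss of EED in the absence of Aire (2.12 ± 0.44, adjusted p = 0.00169). In mTEClo it was at 5.07, 7.01 and 7.31 CPM in Ctrl and 12.1, 8.26, 17.5 and 8.08 CPM in EEDcKO, which was not called (0.87 ± 0.47, adjusted p = 0.169). Kcnh2, a channel that repolarizes the cardiac action potential, also rose in both mTEChi comparisons. It was at 7.31, 7.51, 8.53, 6.86 and 7.49 CPM in Ctrl and 12.4, 18.4 and 22.6 CPM in EEDcKO (1.26 ± 0.31, adjusted p = 0.00342), and at 2.74, 0.689 and 1.98 CPM in AireKO and 7.65, 9.82 and 7.7 CPM in AireEEDdKO (2.15 ± 0.50, adjusted p = 0.00419). The AireEEDdKO libraries therefore lay above those of AireKO and below those of EEDcKO.

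Outside the voltage-gated class, Kcnk1 and Kcnj6 rose in all 3 comparisons. Kcnk1 was at 5.06, 3.46, 6.33, 5.54 and 4.68 CPM in mTEChi Ctrl and 24.2, 24.1 and 45.6 CPM in EEDcKO (2.61 ± 0.35, adjusted p = 1.08e-05). In mTEClo it was at 4.05, 6.66 and 6.75 CPM in Ctrl and 42.1, 56.8, 20.0 and 31.3 CPM in EEDcKO (2.69 ± 0.40, adjusted p = 2.93e-05). Without Aire it was at 1.37, 0.689 and 1.7 CPM in AireKO and 2.35, 6.35 and 10.6 CPM in AireEEDdKO (2.30 ± 0.63, adjusted p = 0.0135), a call lost without AireKO replicate 2 (0.052) or AireEEDdKO replicate 3 (0.153). Kcnj6, an inward rectifier of dopaminergic and other neurons, was at 2.06, 2.07 and 5.37 CPM in AireKO and 25.9, 27.7 and 34 CPM in AireEEDdKO (3.01 ± 0.43, adjusted p = 4.53e-05). In mTEClo it was at 1.69, 1.75 and 2.25 CPM in Ctrl and 6.06, 5.75, 14.7 and 13.6 CPM in EEDcKO (2.45 ± 0.47, adjusted p = 0.000443). The rise of Kcnj6 in mTEChi EEDcKO was smaller (8.05, 19.2 and 17.3 against 4.5, 4.62, 11.3, 7.39 and 7.73 CPM, 1.05 ± 0.33, adjusted p = 0.0187) and was lost without EEDcKO replicate 2 (0.137) or 3 (0.0698), and fell under 2-fold without Ctrl replicate 1 or 2 (0.952 each). Its promoter window is the one above with 30 CpG, while that of Kcnk1 holds 10, most of them in 1 run of repeated CG. Among other members that rose in EEDcKO mTEChi, Kcnc1 holds 41 CpG, and Kcns3 and Kcnk13 hold 9 each. Among those that fell without Aire, Kcnk5 holds 26 and Kcnmb1 holds 1. Whether CpG content goes with any of these changes was not tested.

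**Figure D4:**
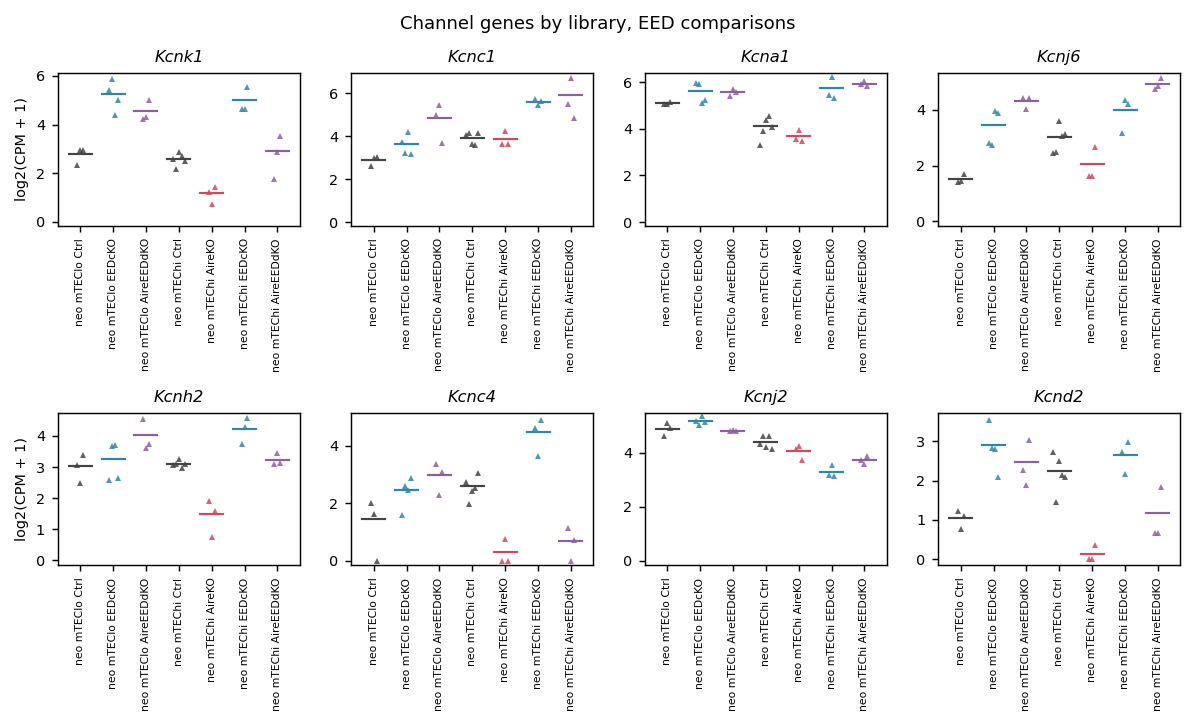
log2(CPM + 1) of 8 potassium channel genes in each neonatal library (triangles) with horizontal lines at the group mean of CPM; grey is Ctrl, red AireKO, blue EEDcKO and purple AireEEDdKO. In mTEChi, all EED-deficient libraries lie above all others for Kcna1, whereas Kcnc4 is high in EEDcKO and low in both mTEChi groups without Aire. In mTEClo, Kcnc4 is not low in AireEEDdKO (9.15, 3.9 and 7.41 CPM, against 3.04, 2.1 and 0 in Ctrl).

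Kcnj2, the strong inward rectifier of skeletal and cardiac muscle, was the member that fell in mTEChi EEDcKO, from 19.1, 23.7, 17.3, 23.5 and 16.6 CPM to 8.05, 10.5 and 7.86 CPM (-1.15 ± 0.19, adjusted p = 0.000106). Against AireKO, AireEEDdKO did not pass the test (-0.28 ± 0.22, adjusted p = 0.58), and in mTEClo Kcnj2 was at 23.3, 33.0 and 29.3 CPM in Ctrl and 34.7, 31.3, 40.3 and 33.6 CPM in EEDcKO. Mesenchymal markers moved with the loss of EED, being higher for 3 of 5 in EEDcKO mTEChi (233–307 against 483–765 CPM in sum) and 4 of 5 in mTEClo (117–124 against 448–635). Muscle markers were higher for 6 of 7 in AireEEDdKO against AireKO, although their sum overlapped (4020–7490 and 4960–7580 CPM), and neuronal markers were higher for 2 of 5 and lower for 1. In EEDcKO mTEChi, 2 of 7 muscle markers were higher and 1 lower, with a lower sum than in Ctrl (954–2560 against 2460–4840 CPM). Neuronal markers were higher there for 2 of 5, and their sums overlapped (498–656 in EEDcKO against 469–655 CPM in Ctrl). Their part was not tested.

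In mTEClo EEDcKO, 4 of the 6 falls were K2P channels. Of the 11 K2P channels tested, 4 were lower and 3 higher, 36.4% and 27.3%, beside 6.22% and 9.51% of all genes. Kcnk9 was at 10.8, 8.77 and 7.88 CPM in Ctrl and at 0 in all 4 EEDcKO libraries, at least 43.9-fold lower (adjusted p = 2.2e-05). Kcne2 was at 7.09, 1.4 and 1.12 CPM in Ctrl and 0 in all 4, at least 15.4-fold lower (adjusted p = 0.00104), and Kcnk16 was at 2.03, 3.16 and 2.25 CPM against 0.673, 0, 0.213 and 0 CPM, a ratio of 12 (3.54 to 63.4). In mTEChi EEDcKO the same 3 genes were not called, with Kcnk9 at 10.5, 24.5 and 3.15 CPM and an adjusted p of 0.0898. Aire itself was at 324.3, 326.5 and 332.5 CPM in mTEClo Ctrl and at 123.9, 233.9, 311.5 and 60.57 CPM in EEDcKO, and all 5 cTEC markers were lower (2100–3160 against 405–982 CPM in sum). Their part in these falls was not tested.

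**Figure D5:**
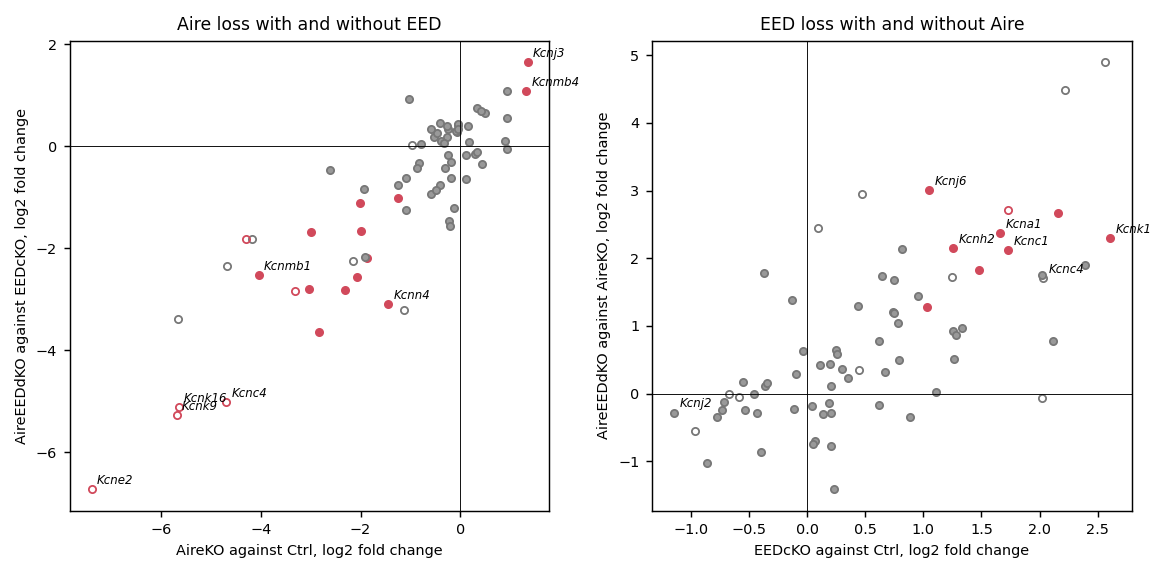
Log2 fold changes of the 73 tested members in neonatal mTEChi, with the Aire effect (left: AireKO against Ctrl on x, AireEEDdKO against EEDcKO on y) and the EED effect (right: EEDcKO against Ctrl on x, AireEEDdKO against AireKO on y); axes of a panel share no library. Red marks members called on both axes, and open symbols mark members with 3 or fewer counts in a group, whose fitted fold is no measured size; Kcnk9, Kcnk16 and Kcne2 lie at the lower left of the Aire panel, and Kcnk1 and Kcna1 at the upper right of the EED panel.

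The falls without Aire were also present when EED was absent. In AireEEDdKO against EEDcKO, 22 of 73 members were lower and 3 higher, 30.1% and 4.11%, beside 8.36% and 4.99% of all genes. Of the 21 members lower in AireKO against Ctrl and these 22, 17 were common, which is 81% and 77.3%, beside 46.9% and 71.9% for all genes, from comparisons with no library in common. Kcne2 was at 2.48, 2.19 and 8.18 CPM in EEDcKO and at 0 in all 3 AireEEDdKO libraries, at least 9.34-fold lower (adjusted p = 0.00546). Kcnk9 was at 10.5, 24.5 and 3.15 CPM against 0, 0 and 0.642 CPM, a ratio of 48.6 (13.2 to 405, adjusted p = 0.000383), and Kcnk16 at 5.58, 7.66 and 6.29 CPM against 0, 0 and 0.321 CPM, a ratio of 44.7 (7.75 to 1790, adjusted p = 0.000109). Kcnmb4 and Kcnj3 were again higher without Aire (1.09 ± 0.31 and 1.65 ± 0.44). Kcnmb4 was lost without EEDcKO replicate 2 (adjusted p = 0.102), EEDcKO replicate 3 (0.0692) or AireEEDdKO replicate 3 (0.0566), and Kcnj3 was lost without EEDcKO replicate 2 (0.0715). Without EEDcKO replicate 3, 15 members instead of 25 were called, and with age class as a term 13 were. Kcne2 (adjusted p = 0.0713) was among the calls lost with age class, and so were 7 of the 17 common falls, Kcne2 included, all 7 still with a negative change. In AireKO against Ctrl, 2 of the 17 were lost with that term. In AireEEDdKO, Schwann cell and glial markers were lower than in EEDcKO for 3 of 5 (32.4–95.4 in EEDcKO against 15.3–18.9 CPM in sum). Tuft cell markers were lower for 3 of 5 (227–375 against 209–325). Ionocyte markers were lower for 2 of 4 (55.6–186 against 76.7–99.9) and keratinocyte markers for 2 of 4 (122–185 against 65.1–101). No marker of these lists was higher, and their part was not tested.

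In neonatal mTEChi, Kcnc4 was lower without Aire and higher without EED, values that share their Ctrl libraries and are set side by side. It was at 5.62, 2.89, 4.4, 4.75 and 7.26 CPM in Ctrl, 0, 0.689 and 0 CPM in AireKO, 23.5, 11.4 and 28.9 CPM in EEDcKO and 1.18, 0 and 0.642 CPM in AireEEDdKO. Its values in AireEEDdKO and AireKO overlapped, and that comparison was not called (adjusted p = 0.498). A test of whether the Aire effect differed with and without EED called 0 members, beside 1.25% of all genes, with 6 members at an unadjusted p under 0.05. Kcnj6 came closest (difference 1.96 ± 0.56, adjusted p = 0.0734) and was the 1 member called by DESeq2 (0.0356) and without the filter on low counts (0.0413).

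Other genes of electrical excitability were put in a list with earlier results of these data known. They were lower for 13 of 39 (33.3%) and higher for 1 in adult mTEChi AireKO. In neonatal AireKO they were lower for 14 of 38 (36.8%) and higher for 2. Of all genes, 17.8% and 12.8% were lower in these comparisons. In AireEEDdKO against EEDcKO the split was otherwise, with 6 of 38 higher (15.8%) and 4 lower (10.5%), beside 4.99% and 8.36% of all genes. In adult mTEClo AireKO 7 of 39 were higher (17.9%, beside 4.42% of all genes) and the others were not called. With the loss of EED they were higher for 8 of 38 in EEDcKO mTEChi (21.1%, beside 8.48%), for 11 of 38 in AireEEDdKO against AireKO (28.9%, beside 6.69%) and for 10 of 38 in mTEClo EEDcKO (26.3%, beside 9.51%), where 5 were lower. Abcc9, the regulatory subunit of ATP-sensitive potassium channels in heart and vessel, fell in neonatal AireKO (log2 change -3.54) and was higher in AireEEDdKO than in AireKO (2.56). Dpp6, which binds transient outward channels such as Kcnd2, changed by -2.67 and 2.76, and the sodium channel Scn8a of axons rose in EEDcKO mTEChi (1.49), AireEEDdKO against AireKO (1.40) and mTEClo EEDcKO (1.54).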

How the data were processed

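Total RNA of sorted mTECs was sequenced with full-length libraries. The deposited values were whole-number counts per gene: per the study's methods and processing notes, the authors trimmed reads with fastp 0.20.0, aligned them with STAR 2.7.3a to mm10, removed low mapping qualities with SAMtools 1.9 and duplicates with Picard 2.21.1, and counted with HTSeq 0.11.2 without strand. Removing duplicates lowers the counts of abundant genes, and unstranded counting mixes a gene with its antisense partner. The authors' normalized tables were not used.

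Each count table was fitted with all its groups in edgeR 4.0.16 (R 4.3.3) with TMM scaling, filterByExpr and the quasi-likelihood test, with Benjamini-Hochberg adjustment over all genes tested. Every adjusted p in the text is of this kind unless DESeq2 1.42.0 is named. A call needed an adjusted p under 0.05 and at least a 2-fold change. Values after ± are standard errors of log2 changes unless given as SD. Where a group held 0 counts, folds are bounds against 3 counts over the group, and with 1 to 3 counts, ratios have 95% intervals, which cover counting error only. The scripts were tested on simulated data. Animals behind each library are not always given, so p-values measure the spread between libraries.

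The members and lists were chosen with earlier results of these data known. Named were, per comparison, called members with at least 1 CPM in the higher group (all up to 12, otherwise the 6 largest rises and falls), the 3 highest per kb in each class, and Kcnq1, Kcnj10, Kcna1, Kcna2, Kcnj2, Kcnma1, Kcnn4, Kcnk1, Kcnk5 and Kcnu1. Other members, such as Kcnc1 and Kcnt1, were chosen after their values were seen. Alternatives were another scaling, no filter, no minimum fold, DESeq2, compared groups alone, males alone, age class, the replicate block, each library left out and, added after the data were seen, library kind as a term. Same-numbered neonatal mTEChi AireKO and AireEEDdKO libraries were paired by their deviations (r = 0.108 to 0.213 over 3 pairs), and the replicate block kept all 13 calls there. Some members are not reported here.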

Additional observations from a re-analysis of the deposited data

Results flagged for a closer look

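Over 27 genes and the members' sum, 168 sets of values from groups of 4 or more libraries were tested. In 10 of these a library was flagged as outlying, where chance flags about 5%. Groups of 3 libraries could not be tested. A library with 1 count where all others held 0 is always flagged, so that share does not hold for such cases. In adult mTEChi AireKO, replicate 2 had Kcnk9, Kcne2 and Kcnmb1 each at 0.409 CPM and the other libraries 0. In adult mTEChi WT, Kcnj10 was at 16.46 CPM in replicate 6 (others 3.213 to 8.054). In adult mTEClo AireKO, Kcnh6 was at 119.1 CPM in replicate 1 (others 86.07 to 89.6) and Kcnk9 at 0.541 CPM in replicate 1, Kcna5 at 0.298 in replicate 3 and Kcne2 at 0.243 in replicate 4, where the others were at 0. In adult mTEClo WT, Kcnk9 was at 16.66 CPM in replicate 1 (others 0 to 0.336) and Kcnt1 at 14.64 CPM in replicate 6 (others 2.622 to 7.139).

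The Aire effect differed between adult mTEChi and mTEClo for 19 members in edgeR's test of the difference. On the log2 scale, mTEChi minus mTEClo, and for those described here, it was -2.021 for Kcna1, -1.88 for Kcnab2, -1.273 for Kcnb2, -3.094 for Kcnc4, -1.618 for Kcnd3, -1.224 for Kcnh1, -1.739 for Kcnip2, -2.601 for Kcnj10, -3.306 for Kcnj12, -2.779 for Kcnk5, -1.641 for Kcnn4 and -2.466 for Kcnt1. It was 1.611 for Kcnmb4. The fitted values of Kcng1 (-6.748), Kcnk1 (-7.373), Kcnk16 (-7.352) and Kcnmb1 (-6.323) depend on the prior count, since a group held 0 or 1 counts.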

How the results depend on the processing

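Counts of called members moved by over 1.5 times under few settings, and the causes were not tested beyond what each setting changes. In adult mTEChi AireKO, 44 members were called with no filter on low counts and 45 with no minimum fold, in place of 29. In adult mTEClo AireKO, 17 were called with no minimum fold and 5 in male libraries alone, in place of 8, and 5 to 10 when each library was left out. The adult difference between fractions gave 29 with no minimum fold, in place of 19. AireEEDdKO against EEDcKO gave 13 with age class as a term, in place of 25, and 15 to 29 when each library was left out. Neonatal Ctrl mTEChi against mTEClo gave 21 to 33, in place of 32. The neonatal test of the Aire effect with and without EED gave 1 with no filter and 1 by DESeq2, in place of 0. With library kind as a term, Kcnj12 (0.806) and Kcnj4 (3.551) reversed in adult mTEChi AireKO. Without mitochondrial counts in any adult mTEChi AireKO library, a fit on libraries that have them could not be made there. With the replicate block, 27 members were called in adult mTEChi AireKO, 10 in mTEClo AireKO, 19 in neonatal AireKO, 17 in EEDcKO mTEChi and 24 in AireEEDdKO against EEDcKO, and numbers outside the 3 pairs named above share only a number. Scaling by library size alone moved the median of all genes by over 0.1 (log2) in 4 of 11 comparisons, by -0.215 to -0.134, to between -0.201 and -0.146. Low depth limits the members near 3 counts, 17 of which were tested in neither table.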
